A study of Mus musculus with 8 samples.

Results

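The VEGF ligands, receptors and neuropilins were examined in the cortex of mouse pups after a period of ischemia before birth. The group was defined by gene name and holds 9 genes: the ligands Vegfa, Vegfb, Vegfc and Pgf, the receptor tyrosine kinases Kdr, Flt1 and Flt4, and the neuropilins Nrp1 and Nrp2. All 9 had a probe on the array, 14 probes in all among the 55681 that were not controls. The ischemia group held 4 male C57BL/6NCr pups at postnatal day 1.5 whose mothers had their uterine arteries clipped shut for 14 min under anesthesia at E16.5, in late gestation. The control group held 4 male pups of the same strain, age and tissue. Whether control mothers had surgery or anesthesia, and which pups were littermates, is not given in the labels, so p-values measure the spread between these pups. One array was hybridised per pup with total RNA labelled with the dye Cy3.

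VEGF-A is the main growth factor of blood vessels and is released by many cells, including neural progenitors and astrocytes, in response to low oxygen through the transcription factor HIF. It binds the receptors Kdr and Flt1 on endothelial cells. Kdr carries most of the signal for growth and survival, whereas Flt1 binds VEGF-A more tightly and signals weakly, so that it limits the ligand that reaches Kdr. Neuropilins have no kinase of their own and act as co-receptors for VEGF and as receptors for class 3 semaphorins, which guide axons.

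The probes are 60 bases long, and a gene with several probes was read at several places along its transcripts. Positions are those in the files, which use the mouse build mm9, and their place in exons, introns or UTRs was not analysed here. Sequences of Kdr, Vegfa and Flt1 probes are shown because the results turn on these genes, each read at separate places. They are written 5′ to 3′ in lower case as the files give them, with no base marked, and the 30-base lines are the first 30 bases of a probe. The Kdr probes lie on the minus strand of chromosome 5, 1086 bases apart, the brightest at chr5:76330395-76330454 and the second at chr5:76329309-76329368.
Kdr brightest probe, whole: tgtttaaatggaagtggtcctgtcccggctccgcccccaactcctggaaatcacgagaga
Kdr second probe, first 30 bases: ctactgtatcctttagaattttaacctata
The brightest Vegfa probe lies on the minus strand of chromosome 17, at chr17:46154387-46154446.
Vegfa brightest probe, first 30 bases: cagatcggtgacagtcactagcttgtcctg
The Flt1 probes that gave a value lie on the minus strand of chromosome 5, 73.1 kb apart, the brightest at chr5:148373791-148373850 and the second at chr5:148446872-148446931.
Flt1 brightest probe, first 30 bases: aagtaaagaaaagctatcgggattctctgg
Flt1 second probe, first 30 bases: ggagggtactgccgttcctgtgtggtattt

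No member passed the test between ischemia and control, and neither did any other probe tested. Of the 14 member probes, 12, of 8 genes, passed the filter on dim probes (well above background on 4 or more of 8 arrays) and were tested. Of these 12, limma called 0 at a Benjamini-Hochberg adjusted p under 0.05, against 0 of 27131 probes (0%) on the whole array. At an unadjusted p under 0.05 limma called 1 member probe lower in ischemia (Kdr), against 7.06% of all probes, and 1 higher (Vegfa), against 3.05%. The groups of arrays did not overlap for 2 member probes (Kdr and Vegfb, both lower on 4 of 4 ischemia arrays), against 6.24% of all probes. The counts at the unadjusted threshold are near the background of the array. Of the 12 probes, 7 were higher and 5 lower in ischemia, with a median log2 difference of 0.022. The median over all probes was -0.023, and 56.7% of all probes were lower.

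Values are given below on a log2 scale on which 0 is the array's 75th percentile of signal and a difference of 1 is a 2-fold difference. Arrays are listed as replicates 1 to 4. Differences are ischemia minus control, with the standard error (SE) and the unadjusted 95% interval of the limma fit. Levels of different probes cannot be set against each other, since each probe binds with its own strength. The tissue is whole cortex, so fewer cells of a type and less RNA per cell cannot be told apart.

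All 8 arrays were of 1 slide and 1 scan, with the ischemia arrays in one row of the slide and the control arrays in the other, so row and group cannot be told apart. The 75th percentile of signal lay between 358.5 and 393.3 on ischemia arrays and between 305.6 and 391.4 on control arrays. Summed levels of cortical neuron markers overlapped between the groups. They lay between 540.3 and 606.2 times the 75th percentile on ischemia arrays and between 570.8 and 608.2 times on control arrays. A sum of this kind follows its brightest genes, here Stmn2 and Tubb3, and says little about the others. Ischemia replicates 1 and 4 stood apart most by markers of tissues next to the cortex. Replicate 3 also lay above all controls in its mean of meningeal fibroblast markers. That mean was 0.51 in log2 relative to the control mean, against at most 0.19 on control arrays. Ptgds, an enzyme made by the meninges and choroid plexus, had signals of 2955, 303.4, 377.2 and 4382 on ischemia arrays and of 171.4, 303.5, 143.3 and 201 on control arrays. Ttr, which carries thyroid hormone and marks the choroid plexus, had a signal of 42770 on ischemia replicate 4 and between 18.47 and 101.5 on the other 7 arrays. Differences without ischemia replicates 1 and 4 are therefore also given below for Pgf, the brightest Flt1 probe and the Nrp2 probes. Other members moved as well. In this setting, which keeps replicate 3, Vegfb gave -0.20, the second Kdr probe -0.17 and the second Vegfa probe 0.055.

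**Figure D1:**
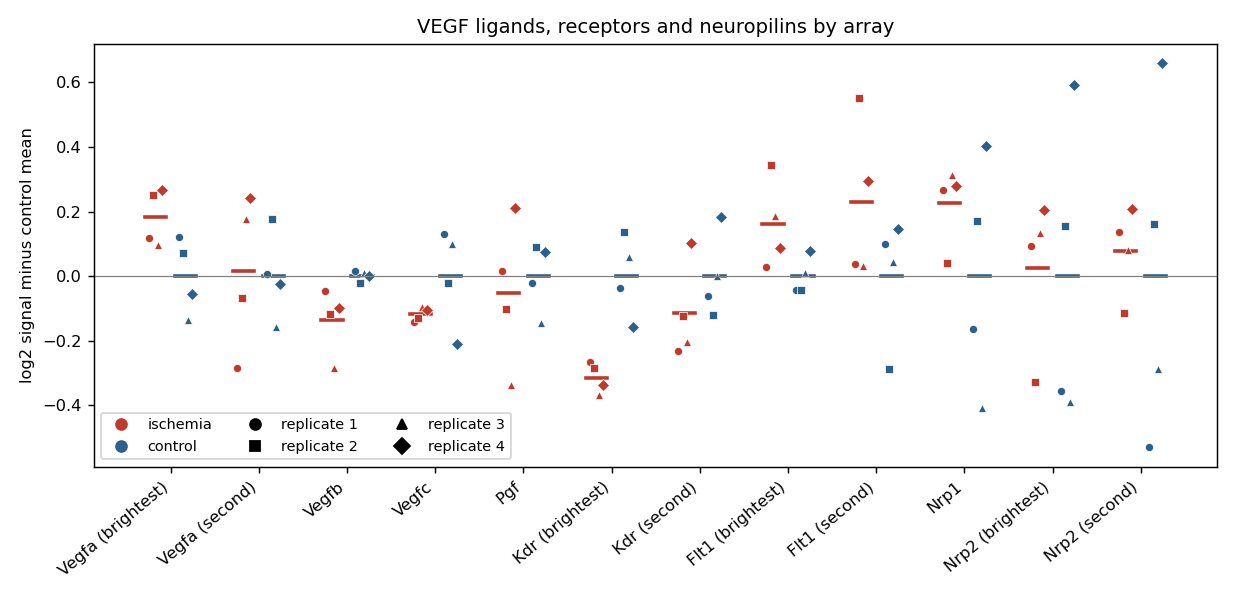
Level of each of the 12 tested member probes on every array, as the scaled log2 signal minus the probe's control mean, with ischemia left of control, a symbol for each replicate number and a line at each group's mean. The groups do not overlap for the brightest Kdr probe and for Vegfb, and overlap for the other 10 probes.

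Among the ligands, Vegfa leaned higher at 1 of its 2 probes, Vegfb leaned slightly lower, and Vegfc and Pgf gave small differences within the spread of the arrays. The brightest Vegfa probe measured 0.61, 0.74, 0.58 and 0.76 on ischemia arrays and 0.61, 0.56, 0.35 and 0.43 on control arrays. Ischemia replicates 2 and 4 lay above all controls, and the other 2 ischemia arrays lay among them. The difference was 0.18 (SE 0.079, interval 0.00089 to 0.36, 4 arrays per group), with a limma adjusted p of 0.493. The second Vegfa probe measured -1.62, -1.40, -1.15 and -1.09 on ischemia arrays and -1.33, -1.15, -1.49 and -1.35 on control arrays. Its groups overlapped, with the ischemia arrays spanning the whole range of the controls. The difference there was 0.017 (SE 0.128, interval -0.28 to 0.31, limma adjusted p = 0.978), and it was -0.058 without ischemia replicate 4. The difference between the Vegfa probes, 0.17, was not significant (exact two-sided permutation p = 0.257 over 70 assignments, adjusted over 4 genes 0.514). It was 0.087 without ischemia replicate 1 and 0.248 without ischemia replicate 3.

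Vegfb, a ligand of Flt1, measured 2.003, 1.931, 1.766 and 1.951 on ischemia arrays and 2.064, 2.027, 2.059 and 2.049 on control arrays. All 4 ischemia arrays lay below all 4 controls, which were very close to each other. The difference was -0.14 (SE 0.066, interval -0.29 to 0.014, limma adjusted p = 0.530), and it was -0.088 without ischemia replicate 3. Its single probe lies at chr19:7057245-7057304 on the minus strand.

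Vegfc, which binds Flt4 and Kdr and drives the growth of lymphatic vessels, measured 0.33, 0.34, 0.38 and 0.37 on ischemia arrays and 0.60, 0.45, 0.57 and 0.26 on control arrays. The ischemia arrays were close together and lay above the lowest control and below the other 3. The difference was -0.12 (SE 0.082, interval -0.31 to 0.070, limma adjusted p = 0.681), and it was -0.075 without control replicate 1 and -0.19 without control replicate 4. Its probe lies at chr8:55271533-55271592 on the plus strand. Placental growth factor, encoded by Pgf, is a ligand of Flt1. Pgf measured -1.82, -1.94, -2.17 and -1.63 on ischemia arrays and -1.86, -1.74, -1.98 and -1.76 on control arrays. The groups overlapped, and the difference was -0.054 (SE 0.118, interval -0.33 to 0.22, limma adjusted p = 0.916). It was 0.040 without ischemia replicate 3 and -0.22 without ischemia replicates 1 and 4.

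**Figure D2:**
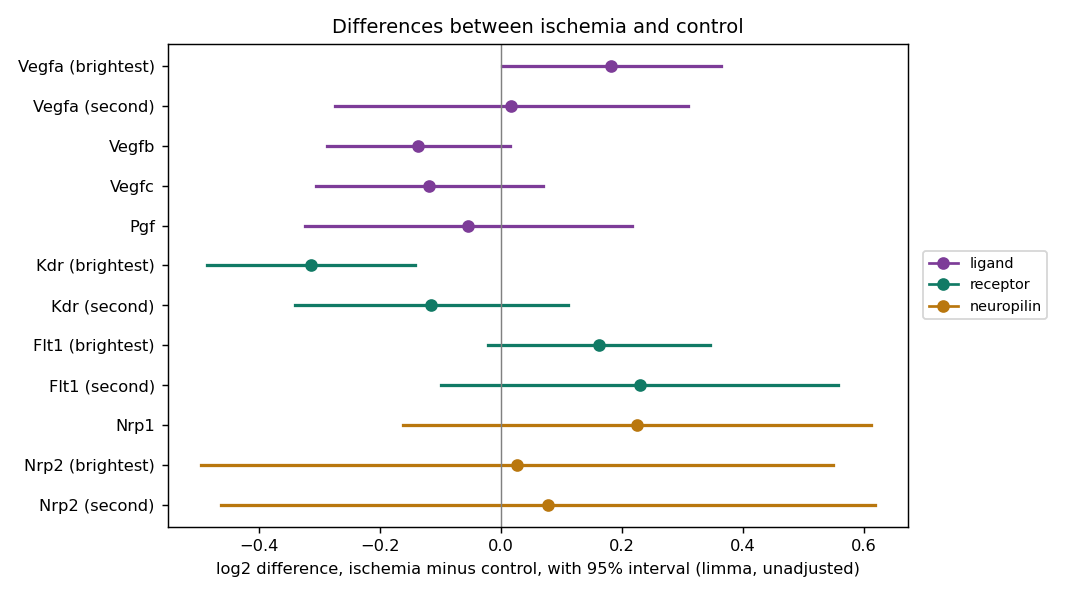
Log2 difference, ischemia minus control, of each tested member probe (points) with its unadjusted 95% interval from limma (lines), coloured by role. The intervals of the brightest Kdr probe (-0.49 to -0.14) and of the brightest Vegfa probe (0.00089 to 0.36) do not include 0, and those of the other 10 probes do.

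Among the receptors, Kdr was lower and Flt1 higher in ischemia at every tested probe, with no difference past the adjusted threshold, and Flt4 gave no signal above background. The brightest Kdr probe measured 4.08, 4.06, 3.98 and 4.01 on ischemia arrays and 4.31, 4.48, 4.40 and 4.19 on control arrays. All 4 ischemia arrays lay below all 4 controls. The difference was -0.31 (SE 0.075, interval -0.49 to -0.14), a fold of 0.804 (interval 0.713 to 0.906). Its unadjusted limma p was 0.00286, the 263rd smallest of the 27131 probes, and the adjusted p was 0.288.

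The second Kdr probe, printed 10 times on each array, measured 1.07, 1.18, 1.10 and 1.40 on ischemia arrays and 1.24, 1.18, 1.30 and 1.48 on control arrays. Its groups overlapped, with ischemia replicate 4 above 3 of the 4 controls. The difference was -0.12 (SE 0.098, interval -0.34 to 0.11, limma adjusted p = 0.747). It was -0.055 without control replicate 4 and -0.19 without ischemia replicate 4. The 10 spots of an array had a coefficient of variation between 2.37% and 6.07%. The difference between the Kdr probes, -0.20, was not significant (exact two-sided permutation p = 0.229, adjusted over 4 genes 0.514). It was -0.113 without control replicate 2, -0.119 without ischemia replicate 4 and -0.312 without control replicate 4.

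The brightest Flt1 probe measured 1.31, 1.63, 1.47 and 1.37 on ischemia arrays and 1.24, 1.24, 1.29 and 1.36 on control arrays. Of the ischemia arrays, 3 lay above all controls and replicate 1 lay just below the highest. The difference was 0.16 (SE 0.080, interval -0.022 to 0.34, limma adjusted p = 0.545). It was 0.10 without ischemia replicate 2, and 0.265 without ischemia replicates 1 and 4. The second Flt1 probe, designed to another transcript of the gene, measured -0.04, 0.48, -0.04 and 0.22 on ischemia arrays and 0.02, -0.36, -0.03 and 0.07 on control arrays. Ischemia replicates 2 and 4 lay above all controls, and replicates 1 and 3 lay among them. The difference was 0.23 (SE 0.143, interval -0.10 to 0.56, limma adjusted p = 0.642), and it was 0.12 without ischemia replicate 2. The Flt1 probes differed by -0.068 in that difference, which was not significant (exact two-sided permutation p = 0.543, adjusted over 4 genes 0.600).

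A further Flt1 probe, at chr5:148465976-148466035, was well above background on 0 of 8 arrays. Its signals and those of the single Flt4 probe, at chr11:49465646-49465705, were near the floor of the array. The Flt4 signals were 6.654, 12.69, 5.697 and 7.258 on ischemia arrays and 5.594, 12.79, 5.019 and 5.135 on control arrays, and the highest array of each group was replicate 2. Flt4 is the receptor of VEGF-C on lymphatic endothelial cells. Neither probe was tested, and at this signal a difference could not be measured.

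Set against each other after their values were seen, the Flt1 differences exceeded the Kdr differences by 0.48 for the brightest probes and by 0.28, 0.54 and 0.34 for the other pairs of probes. For 3 of the 4 pairs the ratio of Flt1 to Kdr was higher on all 4 ischemia arrays than on any control, and for the pair of the brightest Flt1 and the second Kdr probe on 3 of 4. The pairs are made from the same few probes and are not independent, and the brightest Kdr probe alone already separated the groups. How often other pairs of probes on the array separate the groups was not counted. These are descriptions of these arrays, with no test.

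Kdr and Flt1 are made mostly by endothelial cells, and both were set beside 15 measured endothelial markers. Of these markers, 8 were higher and 7 lower in ischemia, and none passed the adjusted threshold. Cldn5, which seals the tight junctions of brain vessels, differed by 0.057 (SE 0.101, limma adjusted p = 0.890). Cdh5, the cadherin of endothelial junctions, differed by -0.057 (SE 0.094, limma adjusted p = 0.882), and Pecam1, an adhesion molecule of the same junctions, by 0.023 (SE 0.313, limma adjusted p = 0.988). The Pecam1 signal was 143.6 on ischemia replicate 2 and between 52.15 and 72.5 on the other arrays. The markers that differed most by p, named after their values were seen, went both ways. Ly6c1, a surface protein of brain endothelium in mice, differed by 0.84 (SE 0.189, limma adjusted p = 0.274), with signals of 1514, 1492, 1009 and 930 on ischemia arrays and of 652.2, 549.2, 543.6 and 726.5 on control arrays. Its 4 ischemia arrays lay above all controls, and its second probe differed by 1.04. Cd34, a sialomucin of vessel walls, differed by -0.25 (SE 0.073, limma adjusted p = 0.353), and its second probe by -0.305. The groups of arrays did not overlap for the brightest Cd34 probe either, with ischemia lower, against 6.24% of all probes. Emcn, a sialomucin of veins and capillaries, differed by 0.80 (SE 0.275, limma adjusted p = 0.408). Its probe was dim, well above background on 6 of 8 arrays. Sox17 differed by 0.27 (SE 0.12, limma adjusted p = 0.499), and its second probe by 0.629. Erg, a transcription factor of endothelial cells whose probe was dim, differed by -0.61 (SE 0.405, limma adjusted p = 0.665).

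Relative to the mean of the 15 markers, the brightest Kdr probe was at -0.39, -0.51, -0.32 and -0.32 on ischemia arrays and at -0.072, 0.21, 0.076 and -0.22 on control arrays, where 0 is the control mean. All 4 ischemia arrays lay below all 4 controls. The brightest Kdr probe alone already separated the groups, so this ratio is not separate evidence from that probe's own difference. The difference of the ratio was -0.39, with an exact two-sided permutation p of 0.0286, the smallest that 70 assignments allow. After adjustment over Kdr and Flt1 this p was 0.0571. With the Flt1 p of 0.314 given below, the adjusted value could not fall under 0.05 for any size of Kdr difference. The marker mean itself was at 0.12, 0.23, -0.047 and -0.021 on ischemia arrays and at 0.033, -0.076, -0.017 and 0.059 on control arrays. It was thus high on ischemia replicates 1 and 2, where Ly6c1 and Emcn and, on replicate 2, Pecam1 were high. These markers are part of the ratio, and the ratio without them was not computed. With the mean over all probes of each gene the Kdr difference was -0.30, with the same adjusted p of 0.0571, again at that limit. Flt1 relative to the same markers was at -0.096, 0.12, 0.23 and 0.11 on ischemia arrays and at -0.076, 0.032, 0.026 and 0.018 on control arrays. Its groups overlapped, and the difference was 0.090 (exact two-sided permutation p = 0.314, adjusted over both receptors 0.314). It was 0.042 without ischemia replicate 3, 0.152 without ischemia replicate 1 (exact permutation p adjusted over both receptors 0.0571) and 0.175 without ischemia replicates 1 and 4 (0.133). With replicates 1 and 4 left out, the permutation test has too few assignments to reach 0.05.

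**Figure D3:**
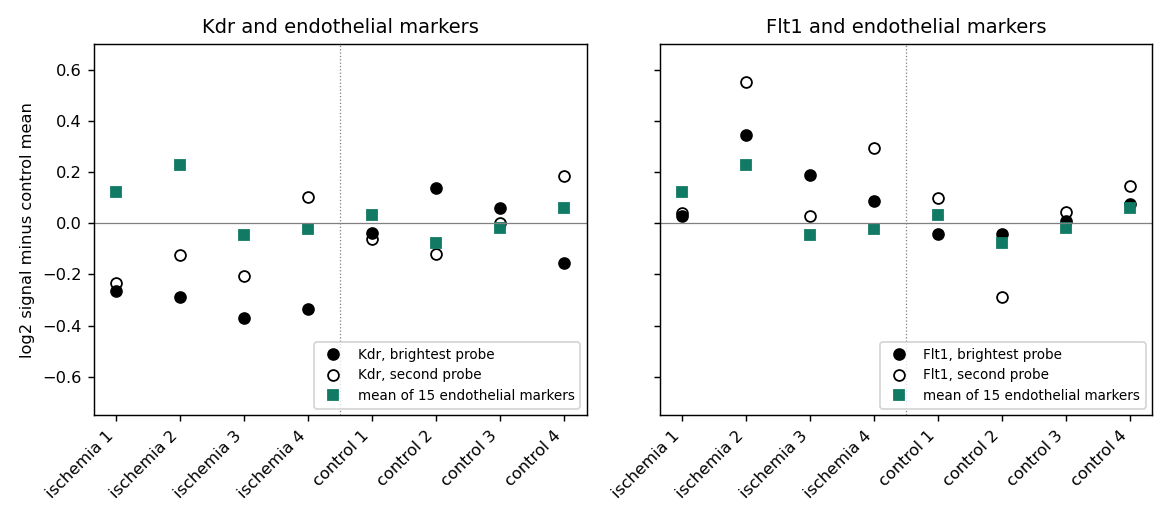
Scaled log2 signal minus the control mean of the Kdr probes (left panel) and of the Flt1 probes (right panel), with the brightest probe as filled and the second as open circles, and of the mean of 15 endothelial markers (squares), on every array with ischemia left of control. The brightest Kdr probe lies below the marker mean on all 4 ischemia arrays, at -0.316 to -0.513 relative to it. It also lies below that mean on control replicates 1 (-0.0718) and 4 (-0.216), and above it on control replicates 2 (0.212) and 3 (0.0758).

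The neuropilins varied more among the control pups than the other tested members did. Their control standard deviations were 0.36 for Nrp1 and 0.47 and 0.53 for the Nrp2 probes, each larger than the difference between the groups. The largest among the other tested probes was 0.20, at the second Flt1 probe. Nrp1, which pairs with Kdr on arteries and with plexins on axons, was read by 1 probe at chr8:131026650-131026709 on the plus strand. It measured 0.40, 0.18, 0.45 and 0.42 on ischemia arrays and -0.03, 0.31, -0.27 and 0.54 on control arrays. The ischemia arrays lay close together within the range of the controls, which spread widely. The difference was 0.22 (SE 0.169, interval -0.16 to 0.61, limma adjusted p = 0.706). It was 0.089 without control replicate 3 and 0.36 without control replicate 4.

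Nrp2, which pairs with Flt4 on lymphatic vessels and veins and binds semaphorins on axons, was read by 2 probes 21.8 kb apart on the plus strand of chromosome 1, the brightest at chr1:62865129-62865188 and the second at chr1:62843298-62843357. The brightest measured 3.69, 3.27, 3.73 and 3.80 on ischemia arrays and 3.24, 3.75, 3.21 and 4.19 on control arrays. The difference was 0.026 (SE 0.228, interval -0.50 to 0.55, limma adjusted p = 0.979). The second measured 0.25, -0.00, 0.19 and 0.32 on ischemia arrays and -0.42, 0.27, -0.18 and 0.77 on control arrays, with a difference of 0.078 (SE 0.236, interval -0.46 to 0.62, limma adjusted p = 0.943). At both probes the groups overlapped, and control replicates 2 and 4 were high and 1 and 3 low, as they were for Nrp1. Leaving out control replicate 4 gave 0.22 and 0.30 for the brightest and the second Nrp2 probe, and leaving out control replicate 1 gave -0.092 and -0.100. Without ischemia replicates 1 and 4 the differences were -0.096 and -0.017. The Nrp2 probes differed by -0.051 in their differences (exact two-sided permutation p = 0.600, adjusted over 4 genes 0.600).

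Markers of other cell types give the setting of these values. Over all probes, 56.7% were lower in ischemia. Of 9 measured mural cell markers, genes of pericytes and smooth muscle, 7 were lower and 2 higher in ischemia. Their summed level lay between 9.267 and 11.55 times the 75th percentile on ischemia arrays and between 11.03 and 11.88 times on control arrays. All 6 measured blood cell markers were lower. Their sums, carried mostly by Hba-a2, lay between 147.8 and 248.5 on ischemia arrays and between 197.9 and 358.6 on control arrays. Their mean log2 levels relative to the control mean overlapped. These were -0.23, -0.0205, -0.528 and -0.898 on ischemia arrays and -0.397, -0.00129, 0.315 and 0.0834 on control arrays. Sums of endothelial markers lay between 49.89 and 67.1 on ischemia arrays and between 53.53 and 60.6 on control arrays. Meningeal fibroblast markers summed to between 4.613 and 16.64 on ischemia arrays and to between 4.148 and 5.357 on control arrays, with 7 of 9 higher. Choroid plexus markers summed to between 3.253 and 117.6 on ischemia arrays and to between 3.199 and 3.581 on control arrays, with 4 of 6 higher. The highest of these sums, on ischemia replicate 4, was mostly Ttr. No gene of these lists passed the adjusted threshold. Among lymphatic markers, Lyve1 was well above background on 0 arrays, as was Flt4, whereas Prox1, which neural progenitors also make, was measured and differed by 0.11 (SE 0.154, limma adjusted p = 0.854). The part of these cell types in the values of the members was not tested.

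**Figure D4:**
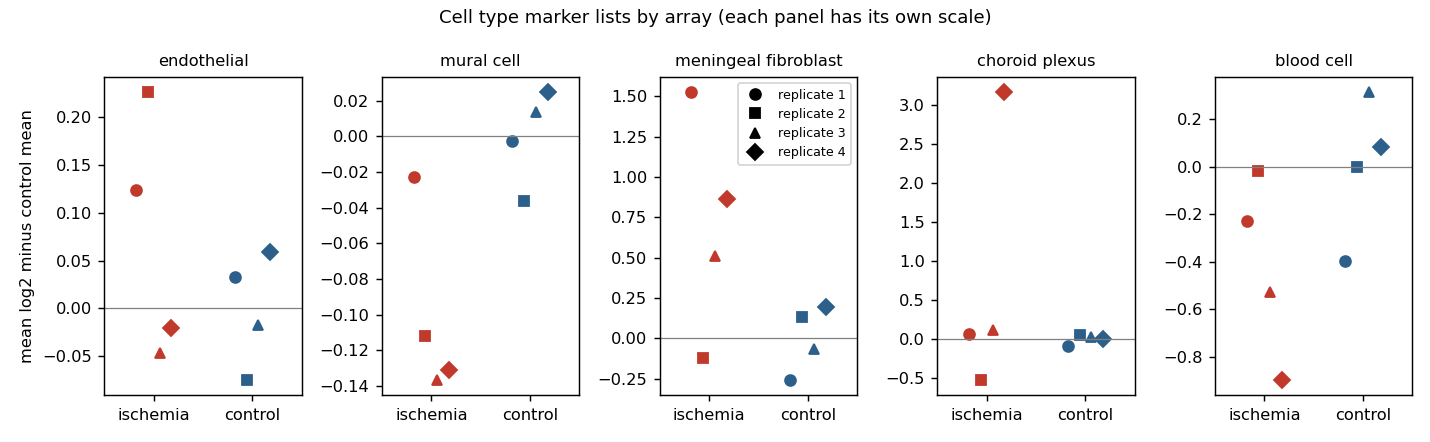
Mean log2 level of the measured markers of 5 cell types on every array, relative to the control mean, with ischemia left of control and a symbol for each replicate number. The choroid plexus mean of ischemia replicate 4 is 3.17, and the meningeal means of ischemia replicates 1, 3 and 4 lie above all controls.

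The genes through which VEGF receptors signal, and those they act with, gave no adjusted call in any of 6 lists. Of 30 genes of signal transduction below the receptors, 29 were measured, 13 higher and 16 lower in ischemia, with a median log2 difference of -0.011 against -0.023 for all probes. At an unadjusted p under 0.05, 2 of the 29 were higher and 0 lower, against 3.05% and 7.06% of all probes. Hspb1, a small heat shock protein that Kdr signalling phosphorylates through p38, had signals of 458.7, 347, 437 and 372 on ischemia arrays and of 299.8, 255.9, 238.4 and 353.4 on control arrays. These signals are not scaled for the array. On the scaled log2 values Hspb1 differed by 0.36 (SE 0.115, limma adjusted p = 0.383). Plcg1, the phospholipase that binds activated Kdr, differed by 0.23 (SE 0.090, limma adjusted p = 0.446), and its second probe by 0.157. On the scaled values the groups did not overlap at the brightest probes of Hspb1 and Plcg1, against 6.24% of all probes. Both genes were picked by their p.

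Genes that VEGF induces in endothelial cells were divided by sign, with 5 of the 10 measured higher and 5 lower and a median of -0.055 against -0.023 for all probes. Of the 15 listed, Egr3, Esm1, Angpt2, Plau and Dusp5 were not well above background on enough arrays. At an unadjusted p under 0.05, 0 of the 10 were higher and 3 lower, against 3.05% and 7.06% of all probes. Apln, a peptide made by the tip cells of growing vessels, had signals of 239.2, 260.8, 196.6 and 300.3 on ischemia arrays and of 326.2, 265.1, 247.2 and 366.1 on control arrays. On the scaled log2 values Apln differed by -0.41 (SE 0.127, limma adjusted p = 0.374). Nid2, a nidogen of the basement membrane, differed by -0.21 (SE 0.075, limma adjusted p = 0.424). On the scaled values the groups did not overlap for Apln and Nid2, also picked by their p, against 6.24% of all probes.

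Of 11 measured partners and modulators of VEGF receptors, 5 were higher and 6 lower, with a median of -0.028 and 0 at an unadjusted p under 0.05 in limma. Hspg2, the heparan sulfate proteoglycan perlecan, differed by -0.17 (limma adjusted p = 0.548), and Gipc1, which binds the tail of Nrp1, by -0.16 (limma adjusted p = 0.564). Of 6 measured class 3 semaphorins, the other ligands of neuropilins, 1 was higher and 5 lower, with a median of -0.037. Of all probes, 56.7% were lower. Sema3c differed by -0.33 (SE 0.167, limma adjusted p = 0.556), and its second probe by -0.346, and Sema3g by -0.24 (SE 0.123, limma adjusted p = 0.554). Of 5 plexins, which pass on the semaphorin signal, 4 were higher and 1 lower, with a median of 0.043. Plxnd1, the plexin of endothelial cells, differed by 0.11 (SE 0.105, limma adjusted p = 0.777), and Plxna1 by -0.30 (SE 0.321, limma adjusted p = 0.806). In the angiopoietin and Tie system, which steadies vessels beside VEGF, 3 genes were measured, with a median of -0.10. The ligand Angpt1 differed by -0.23 (SE 0.115, limma adjusted p = 0.542) and Tie1, which partners the receptor of Angpt1, by -0.10 (SE 0.124, limma adjusted p = 0.834). That receptor, Tek, had the same mean of -2.947 in both groups.

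**Figure D5:**
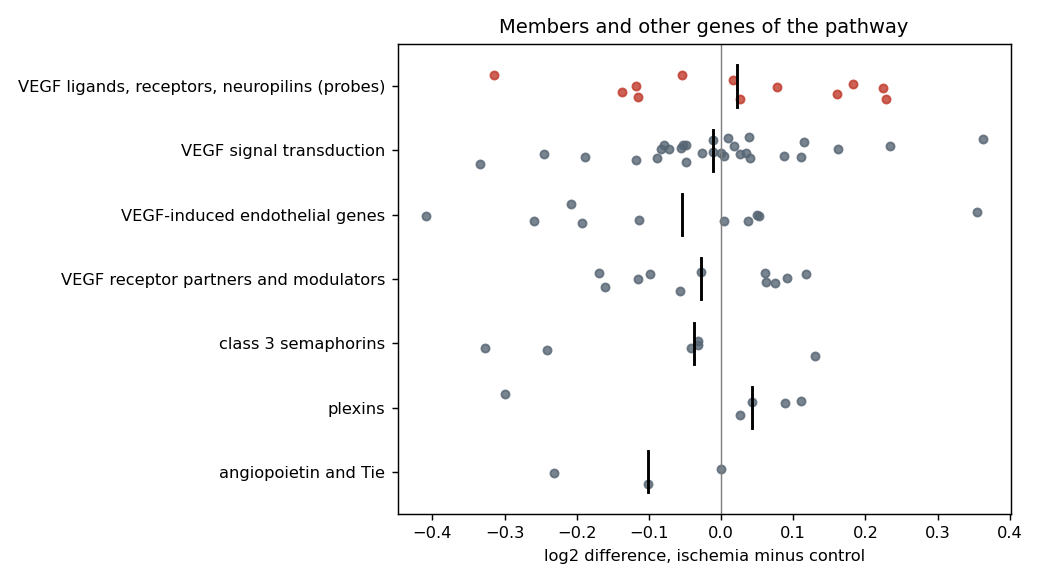
Log2 difference, ischemia minus control, of the brightest probe of each measured gene in 6 lists around the VEGF pathway, below the 12 member probes in the top row (points), with the median of each row (bar). The medians of the 6 lists lie between -0.10 for the angiopoietin and Tie list and 0.043 for the plexins.

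Among 14754 genes with a symbol, levels that followed the brightest Kdr probe closely over the 8 arrays included those of Fgf6 (Pearson r = 0.989) and Dnaaf2 (0.985). For the brightest Flt1 probe the closest were Gm19887 (0.976), Brf2 (0.946) and Nfat5 (0.943), and for the brightest Vegfa probe Eif4a3 (0.945), Scrib (0.942) and Cyp2c38 (0.938). These are among the highest of many correlations over 8 points that share the group difference and the scaling of each array, and they are a description only.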

How the data were processed

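Gene expression was measured on 1-colour Agilent arrays, 4 ischemia and 4 control. The authors deposited the scanner intensities, read with Agilent Feature Extraction 10.7.3.1 per the submitters' processing notes. The processed signal, an intensity that the software had corrected for background, was used, and the mean and background intensities for an alternative. The authors' deposited value table is a ratio, the processed signal over 1 constant per array, and was used only as an alternative.

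Control spots and flagged outlier spots were left out, spots of a probe were averaged, and values were taken as log2 of the signal minus log2 of the array's 75th percentile. Probes well above background on at least 4 of 8 arrays were kept, 27131 of 55681. Of the spots, 47.6% to 51.7% were well above background on ischemia arrays and 49.2% to 50.6% on control arrays, and 0 were saturated. The number of arrays limits the precision. Each kept probe was fitted with lmFit and eBayes of limma 3.58.1 (R 4.3.3), ischemia minus control. P-values were adjusted by Benjamini-Hochberg over these probes, and 0.05 was the threshold. Single values were compared with exact two-sided permutation tests. The scripts were tested on simulated data.

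The members and lists were chosen with earlier results of these data known. All members and probes are named. From each pathway list the genes passing the adjusted threshold are named, or else the 2 with the smallest p, and from marker lists the sums and a few defining markers. Alternatives were other background corrections, scalings, filters, variance models, array weights, the replicate number as a block, 1 probe a gene and arrays left out. For Kdr, Flt1 and Vegfa, the 3 genes with the most similar pattern over the arrays were chosen by Pearson r, of which 1 is not reported here.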

Additional observations from a re-analysis of the deposited data

Results flagged for a closer look

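One set of values held an array far from the others of its group. In Flt1 relative to endothelial markers, control replicate 1 lay low at -0.076, where the other 3 controls lay between 0.018 and 0.032. Its gap to the nearest control was 0.865 of the group's range, above Dixon's 95% critical value for 4 samples. Of 28 sets checked, 1 passed this value, and chance flags about 5% of sets.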

How the results depend on the processing

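Called member probes numbered 0 under all 19 alternatives, and the brightest Kdr probe stayed lower in ischemia under each, with differences between -0.37 and -0.26 and limma adjusted p between 0.124 and 0.744. Kdr relative to endothelial markers lay between -0.46 and -0.30 (exact permutation p adjusted over both receptors 0.0571 to 0.25). Over all probes, 2 were called with scaling to the median, 1 with the authors' value table, 1 with 1 probe a gene, 21 with a trended and robust variance, and 0 to 1 with each array left out in turn. At an unadjusted p under 0.05 there were 1818 probes with scaling to the median, against 2742. Differences that changed sign were small. With each array left out in turn they ranged from -0.14 to 0.040 for Pgf, from -0.058 to 0.12 for the second Vegfa probe, from -0.10 to 0.22 for the brightest and from -0.100 to 0.30 for the second Nrp2 probe. The differences between probes ranged from -0.14 to 0.014 for Flt1 and from -0.086 to 0.0072 for Nrp2. Without ischemia replicates 1 and 4, a choice made after seeing the data, the Nrp2 probes gave -0.096 and -0.017. The cause of these changes was not tested. With the replicate number as a block, limma called 0 probes, with 2985 at an unadjusted p under 0.05, and Kdr relative to the markers had an adjusted p of 0.25, from 16 sign flips that cannot reach 0.05. Same-numbered arrays correlated at 0.081, -0.066, 0.275 and 0.361 in their deviations from the group means. The highest correlation of each ischemia array with a control of another number was 0.169, 0.16, -0.044 and 0.052. Same-numbered arrays were thus more alike for replicates 3 and 4, and less alike for replicates 1 and 2. Whether the numbers pair the pups was not settled, and the main fit did not use them. Signal near background limits Flt4.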
